A study of Rattus norvegicus with 32 samples.

Results

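Liver sinusoidal endothelial cells (LSECs) of rats at the stage of fibrosis were compared with LSECs of rats with acute injury in the carbon tetrachloride (CCl4) model. The comparison took all 5 libraries labelled as 6 weeks of treatment (fibrosis) and all 5 labelled as 2 weeks (acute injury), 10 of the 32 libraries of the series, and every gene of the count files. All rats were of the Wistar Han strain, and the study describes them as male rats that inhaled CCl4 and drank water with phenobarbital, which induces the hepatic enzymes that activate the toxicant. Rats of 2 more groups were used only to place a level: 6 libraries of untreated rats (healthy) and 6 labelled as CCl4-treated with no duration, which the study calls cirrhosis. LSECs were purified from perfused and digested livers on an iodixanol density gradient, several days after the last toxicant dose, so the cells were sequenced after exposure had stopped. A density gradient enriches LSECs without selecting them by a surface protein, and other liver cells can remain in the preparation. The labels name separate libraries and give no batch, cage or pooling, so the p-values measure the spread between these libraries.

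LSECs line the hepatic sinusoid, where their open fenestrae let plasma reach hepatocytes and their scavenger receptors clear waste macromolecules from portal blood. With repeated injury they lose fenestrae and lay down a basement membrane, a change known as capillarization, and they lose the vasodilator and quiescence signals that hold hepatic stellate cells in check. Activated stellate cells are the main source of fibrillar collagen in the fibrotic liver. CCl4 is turned into a reactive radical by cytochrome P450 enzymes in hepatocytes around the central vein, where the necrosis and later the scar begin.

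Total estimated counts ran from 32037715 to 36916992 in the acute libraries and from 28205908 to 30679815 in the fibrosis libraries, so every gene was measured at a slightly lower depth at fibrosis. The first principal component of log2 CPM (counts scaled to library size) took 46.5% of the variance and put the acute libraries at -54.3 to -21.6 and the fibrosis libraries at 35.8 to 61.7. Acute replicate 8 was the acute library nearest to the fibrosis group on that axis, and it lay at -57.2 on the second component, opposite to acute replicate 4 at 48.0. LSEC markers, the scavenger receptors and other genes by which these cells are known, summed to 3329 to 4325 CPM at acute injury and 2432 to 3649 CPM at fibrosis, against 20652 to 39664 CPM in healthy and 19427 to 25471 CPM in cirrhosis libraries. All 10 libraries compared here lay above all 12 healthy and cirrhosis libraries for 2966 tested genes and below them for 2339, which is 38.1% of the genes tested and 29.6% of the genes called below. Injury stage and any unlabelled difference in handling cannot be told apart across these library sets, and for this reason the comparison of fibrosis with acute injury was fitted on its own 10 libraries. Within these 10, stage still goes with depth and with weeks of treatment, and so with any difference in age. These, and any unlabelled difference in handling between the acute and fibrosis libraries, cannot be told apart from stage.

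**Figure D1:**
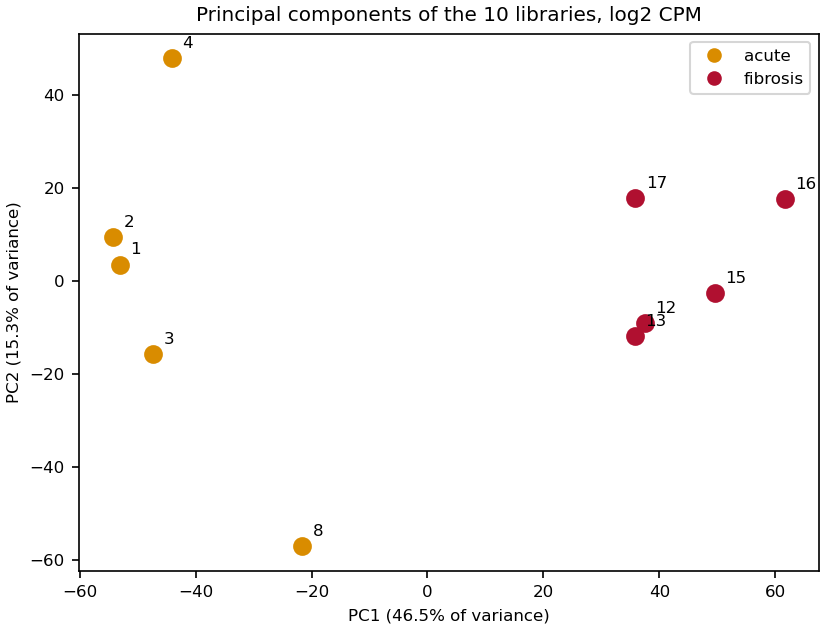
Scores of the 10 LSEC libraries on the first (46.5% of variance) and second (15.3%) principal components of log2 CPM; each point is a library with its replicate number and colour gives the group. The groups do not overlap on the first axis, and acute replicates 4 and 8 lie at the ends of the second, at 48.0 and -57.2.

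Of 32623 genes in the files, 13931 held enough counts to be tested. At a Benjamini-Hochberg adjusted p below 0.05 and a fold-change above 1.5 (limma-voom, used for every adjusted p in this text unless another tool is named), 1529 genes (11%) were differentially expressed (DEG). Of these, 1427 were up-regulated at fibrosis (10.2% of genes tested) and 102 were down-regulated (0.732%). The shares given here are the background against which the gene groups are read. Without the fold threshold, 2826 genes passed, 1710 higher and 1116 lower, so most of the falls that passed the test were smaller than the fold threshold. Median log2 fold changes were 1.71 among up-regulated and -0.76 among down-regulated DEG, and 585 genes rose by more than 2 on the log2 scale whereas 25 fell by more than 1. The rises lay mostly in scarce transcripts, with 1043 of 1427 (73.1%) below a mean log2 CPM of 3, where 20.3% of genes tested were up-regulated. At a mean log2 CPM of 7 or more, 55 of 1797 genes (3.06%) were up-regulated and 16 were down-regulated. Every fibrosis library lay above every acute library for 1106 genes and below every one for 841, together 14% of the genes tested. Without acute replicate 8 the number of DEG was 2166, and without acute replicate 1 it was 1011. With the first of these left out 87.2% of DEG were up-regulated, against 93.3% with all libraries.

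**Figure D2:**
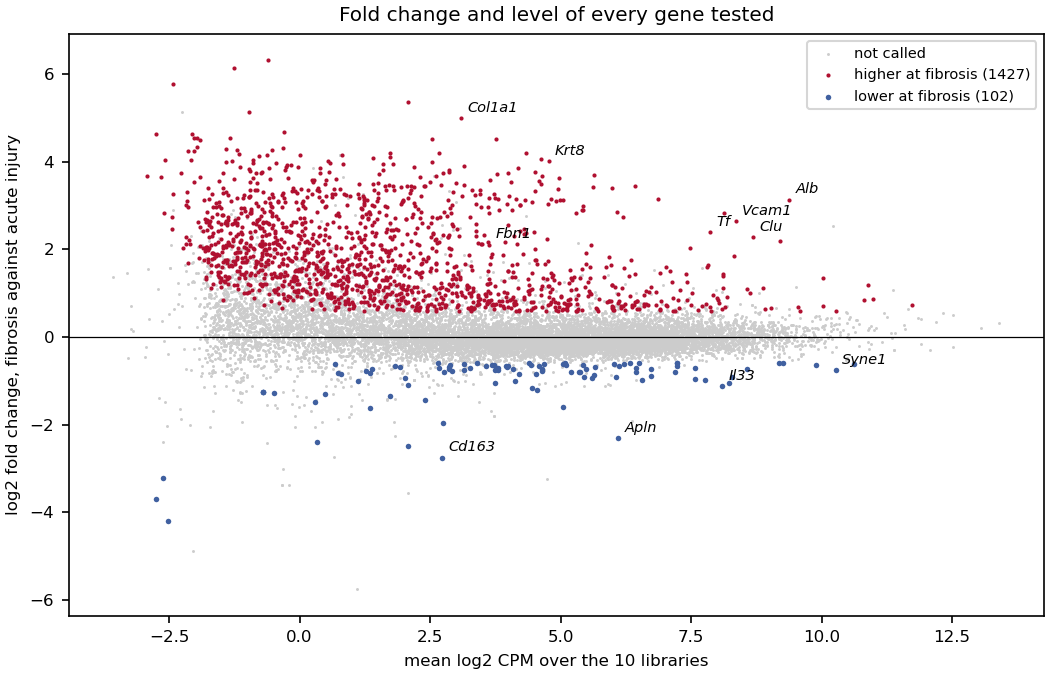
Log2 fold change of fibrosis against acute injury (vertical axis) by mean log2 CPM over the 10 libraries (horizontal axis) for the 13931 genes tested; coloured points passed the adjusted p and the fold threshold. The 1427 up-regulated genes crowd the left side, where means are low, and the 102 down-regulated genes are fewer, with a median of -0.76 against 1.71.

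Values per library are given below in CPM in the order of acute replicates 1, 2, 3, 4 and 8 and then fibrosis replicates 12, 13, 15, 16 and 17, with the log2 fold change ± its standard error from the model. CPM were scaled over the 22 healthy, acute, fibrosis and cirrhosis libraries, on which scale the median log2 ratio of fibrosis to acute injury over all genes tested was -0.085, whereas the model's own scaling over the 10 libraries put it at 0.0055. CPM are not divided by gene length, so levels are compared between groups and not between genes.

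Genes of the fibrillar and matricellular matrix were the gene group with the most up-regulated members. Of 25 members tested, 22 rose and none fell, with a median log2 fold change of 2.24 against 0.0043 over all genes. Fibrillar collagen Col1a1 (ENSRNOG00000003897), the main protein of scar, held 0.677, 1.78, 1.94, 1.31 and 1.72 CPM at acute injury and 52, 77.3, 31.2, 55.5 and 17.3 CPM at fibrosis, a rise from a trace to a clear signal with no overlap (log2 fold change 4.98 ± 0.76, adjusted p = 0.00443). The microfibril glycoprotein Fbn1 (ENSRNOG00000007302) went from 4.82, 4.76, 4.69, 6.1 and 7.74 CPM to 19.3, 27.7, 16.5, 32 and 18.2 CPM (log2 fold change 2.11 ± 0.24, adjusted p = 0.00218). Fibronectin, Fn1 (ENSRNOG00000014288), on which collagen fibrils assemble, was measured at 24.1, 21.6, 17.7, 31.7 and 14.5 CPM at acute injury and 66.2, 63.9, 64.7, 132 and 66.4 CPM at fibrosis (log2 fold change 1.91 ± 0.26, adjusted p = 0.00363). Fibrosis replicate 16 stood highest for Fn1, and the other four fibrosis libraries were close to each other. The small proteoglycans Bgn and Dcn, which bind collagen, rose, Bgn with 15.4 to 50.7 CPM at acute injury and 58.9 to 117 CPM at fibrosis (log2 fold change 2.11 ± 0.30, adjusted p = 0.00363) and Dcn with 0.135 to 0.891 CPM at acute injury and 1.46 to 2.38 CPM at fibrosis (log2 fold change 2.55 ± 0.45, adjusted p = 0.00627). Postn, a matricellular protein of remodelling tissue, was called higher and lay at 0 to 0.0819 CPM at acute injury and 0.325 to 1.35 CPM at fibrosis, and its fold is not given because the acute libraries held only a few counts. Loxl1, which cross-links elastic fibres, lay at 0.487 to 1.11 CPM at acute injury and 2.89 to 11.3 CPM at fibrosis (log2 fold change 3.0 ± 0.54, adjusted p = 0.00674). Summed over the list, matrix genes took 666 to 1156 CPM at acute injury and 1009.6 to 2204 CPM at fibrosis. The ranges of the sums overlapped, and both lay under those of healthy (3255 to 4987 CPM) and cirrhosis libraries (4855 to 9393 CPM). Thbs1, the member with the most counts, was called close to the threshold (log2 fold change 0.68 ± 0.21, adjusted p = 0.0469), and Sparc was not called (log2 fold change -0.17 ± 0.28, adjusted p = 0.689). With each library left out in turn the number of up-regulated members ran from 17 to 24.

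**Figure D3:**
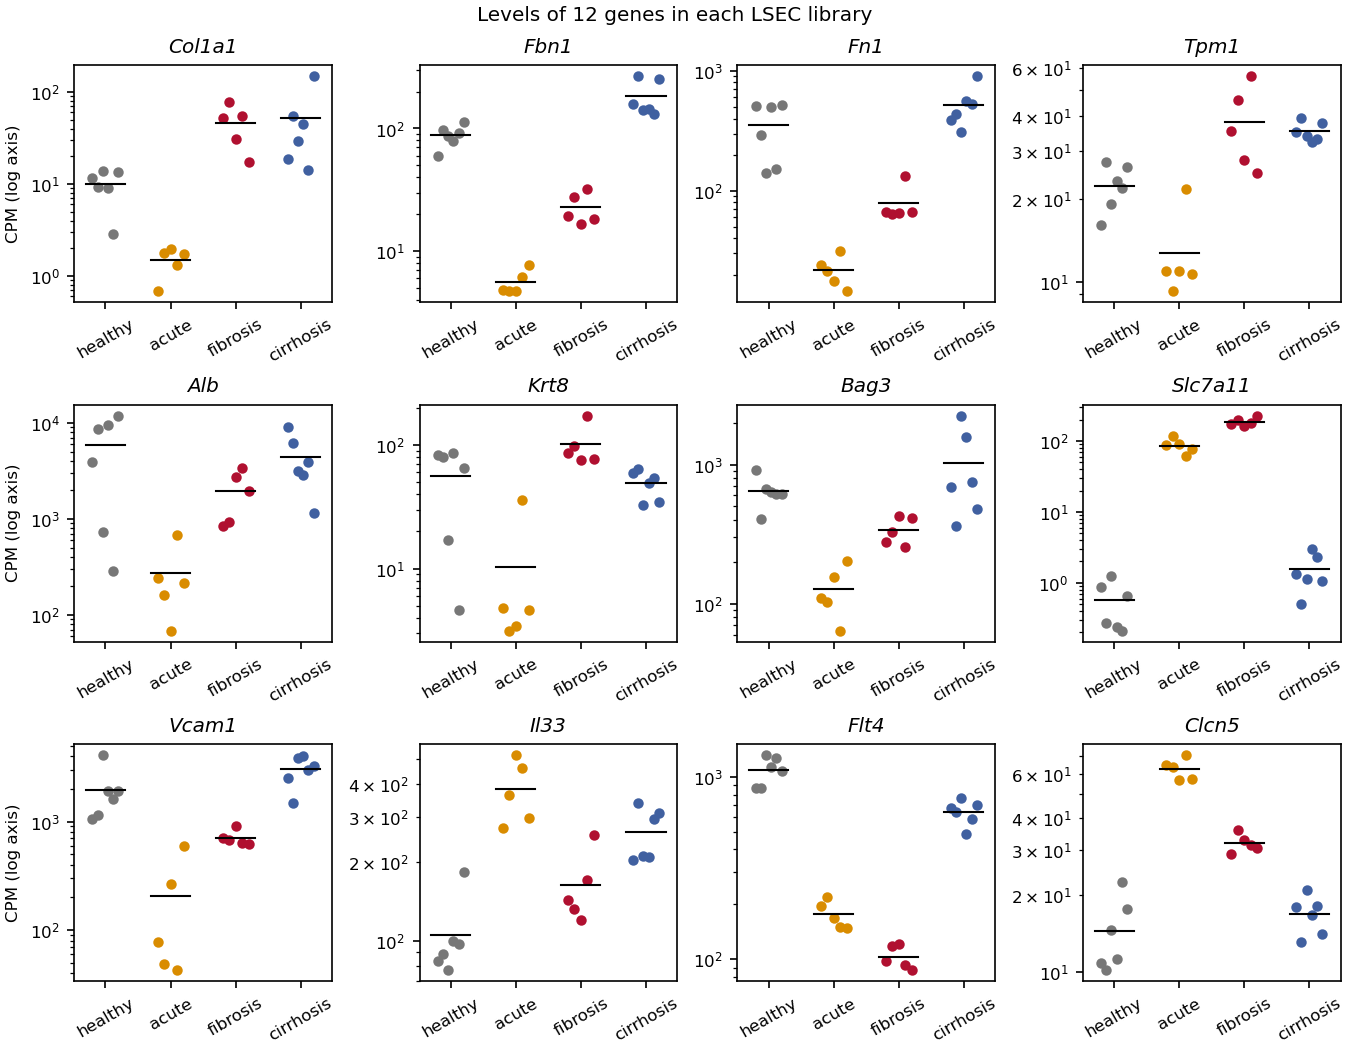
CPM of 12 genes in each library of the healthy, acute injury, fibrosis and cirrhosis groups (log axis); points are libraries and lines are group means. Col1a1, Fbn1 and Fn1 are lowest at acute injury, with fibrosis means of 46.6, 22.8 and 78.7 CPM, and Clcn5 is highest at acute injury and lower in every fibrosis library.

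Markers of stellate cells and fibroblasts, the liver's mesenchymal cells, were up-regulated in 10 of 15 members tested. Des, the intermediate filament of stellate and muscle cells, was at 0.298, 0.0541, 0.519, 0.415 and 1.34 CPM at acute injury and 4.4, 5.67, 2.37, 6.67 and 1.15 CPM at fibrosis (log2 fold change 3.36 ± 0.79, adjusted p = 0.0164). The highest-count marker of the list, Reln, a secreted glycoprotein, was at 1644, 2107, 1590.3, 1306 and 1703 CPM at acute injury and 1153, 1541, 1228, 1413 and 1422 CPM at fibrosis and did not pass the test (log2 fold change -0.20 ± 0.12, adjusted p = 0.266). Nes, another intermediate filament, was not called either (log2 fold change 0.31 ± 0.16, adjusted p = 0.188), nor was Lrat, the retinol-esterifying enzyme that defines vitamin A storage (log2 fold change 0.12 ± 0.41, adjusted p = 0.854). Every marker that rose held fewer counts than Reln. Des was scarce in both groups, whereas Col1a1 and Tagln, also among the rises, were not scarce at fibrosis. The sum over the list, dominated by Reln, was 1363 to 2168 CPM at acute injury and 1398 to 1890.0 CPM at fibrosis. That sum mostly gives the level of Reln and is no measure of stellate cell content. Which cells held the Reln transcript was not tested. In bulk samples fewer cells of a type and less RNA per cell cannot be told apart, and the part of these cells in the rise of the matrix genes was not tested. Col1a1, Dcn, Postn and Loxl1 stand in both lists.

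Smooth muscle contractile genes, a list that shares Acta2, Tagln and Des with the stellate cell and fibroblast list, rose in 4 of 13 members tested. Tpm1, an actin-binding tropomyosin that the study follows, was at 11, 9.22, 10.9, 21.8 and 10.6 CPM at acute injury and 35.3, 45.9, 27.7, 56 and 24.9 CPM at fibrosis (log2 fold change 1.66 ± 0.29, adjusted p = 0.00627). Acute replicate 4 was the highest acute library for Tpm1, close under the lowest fibrosis library. Its paralog Tpm2 was at 1.62, 1.7, 1.8, 1.15 and 4.78 CPM at acute injury and 3.52, 5.97, 4.49, 3.86 and 2.49 CPM at fibrosis (log2 fold change 1.13 ± 0.35, adjusted p = 0.0424) and lost its call in 12 of 19 other fits, among them those without any one library other than acute replicate 8 and fibrosis replicate 17, with adjusted p from 0.0034 to 0.099 over all of them. Tagln, an actin-bundling protein of contractile cells, was at 1.54, 4.0, 4.09, 4.75 and 15.3 CPM at acute injury and 61.4, 96.3, 51.9, 76.9 and 11 CPM at fibrosis (log2 fold change 3.54 ± 0.88, adjusted p = 0.0197), with an adjusted p of 0.0516 without acute replicate 1 and 0.0503 without acute replicate 2 (range over the alternatives 1.19e-05 to 0.0516). Acta2, the smooth muscle actin of activated stellate cells, had a wide interval and did not pass (log2 fold change 3.66, 95% interval 1.02 to 6.3, adjusted p = 0.0526). Leaving out acute replicate 1 or acute replicate 2 left 2 contractile genes called. The contractile list summed to 198 to 339 CPM at acute injury and 205 to 567 CPM at fibrosis. Healthy libraries held 1146 to 1607 CPM and cirrhosis libraries 731 to 1091 CPM of it.

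Basement membrane genes were mixed, with 4 up-regulated and 1 down-regulated of 14. Col18a1, whose C-terminal fragment is endostatin, was at 8.12, 6.14, 5.46, 12.6 and 5.22 CPM at acute injury and 21.6, 22.1, 25.3, 42 and 18.2 CPM at fibrosis (log2 fold change 1.87 ± 0.30, adjusted p = 0.00473). Laminin chain Lamb1 rose, with 1.98 to 15.2 CPM at acute injury and 14.4 to 47.3 CPM at fibrosis (log2 fold change 2.82 ± 0.56, adjusted p = 0.00902), and collagen IV chain Col4a5 at 0.218 to 0.573 CPM at acute injury and 0.874 to 1.77 CPM at fibrosis (log2 fold change 1.91 ± 0.33, adjusted p = 0.00617). The chains with the most counts did not move with them, as Col4a1 (log2 fold change 0.20 ± 0.12, adjusted p = 0.242) and Col4a2 (log2 fold change 0.06 ± 0.10, adjusted p = 0.681) did not pass the test. Nid1, the linker between laminin and collagen IV, fell from 693, 681, 655, 813 and 663 CPM to 347, 444, 425, 452 and 487 CPM with no overlap (log2 fold change -0.60 ± 0.09, adjusted p = 0.00443). Its fold-change lay near the threshold of 1.5, and it fell by 0.55 on the log2 scale, under that threshold, without acute replicate 4 and by 0.53 without fibrosis replicate 12. The Nid1 call was also lost with upper-quartile factors and with a minimum of 1 CPM in 5 libraries. In the fit over 22 libraries its adjusted p was 0.196.

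Matrix proteases and their inhibitors rose in 6 of 18 members. Mmp2, a gelatinase made mainly by mesenchymal cells, was at 1.22, 1.46, 1.69, 2.05 and 3.31 CPM at acute injury and 6.43, 16.7, 7.74, 10.4 and 9.48 CPM at fibrosis (log2 fold change 2.49 ± 0.34, adjusted p = 0.00363). Its inhibitors rose as well, Timp1 at 33, 29.8, 34.2, 15.4 and 46.6 CPM at acute injury and 98.2, 103, 148, 72.6 and 77.3 CPM at fibrosis (log2 fold change 1.82 ± 0.28, adjusted p = 0.00443) and Timp2 at 4.08 to 8.09 CPM at acute injury and 10.4 to 15.5 CPM at fibrosis (log2 fold change 1.14 ± 0.18, adjusted p = 0.00443). Interstitial collagenase Mmp13 was not called (log2 fold change 0.55 ± 0.53, adjusted p = 0.486).

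In the TGF-beta and BMP pathway, 4 members were up-regulated and 1 down-regulated of 26. Ltbp1, which stores latent TGF-beta in the matrix, was at 5.36, 5.78, 5.16, 4.49 and 13.9 CPM at acute injury and 17.8, 33.2, 17.4, 17.8 and 18.8 CPM at fibrosis (log2 fold change 1.82 ± 0.29, adjusted p = 0.00459). Bmpr1a, a type I BMP receptor, lay at 0.838 to 3.31 CPM at acute injury and 4.13 to 8.7 CPM at fibrosis (log2 fold change 1.91 ± 0.35, adjusted p = 0.00696). Ligand Tgfb1 was not called (log2 fold change -0.06 ± 0.10, adjusted p = 0.693) and neither was the endothelial co-receptor Eng (log2 fold change 0.20 ± 0.07, adjusted p = 0.0527). The member called lower, the activin antagonist Fst (log2 fold change -0.77 ± 0.24, adjusted p = 0.0423), was lost without acute replicate 1, acute replicate 4 or fibrosis replicate 12, 13, 15 or 17. Without acute replicate 1 or acute replicate 4 the list had 2 up-regulated members.

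Hepatocyte markers were up-regulated in 19 of 22 members tested, with a median log2 fold change of 3.13, and the remaining 3 had positive values without passing. Albumin, Alb (ENSRNOG00000002911), was at 244, 162, 68.1, 673 and 216 CPM at acute injury and 840.1, 926, 2718, 3423 and 1935 CPM at fibrosis (log2 fold change 3.13 ± 0.59, adjusted p = 0.00749). Transferrin, Tf, the iron carrier of plasma, was at 105, 95.2, 57.3, 142 and 86.8 CPM at acute injury and 277, 256, 628, 861 and 524 CPM at fibrosis (log2 fold change 2.4 ± 0.34, adjusted p = 0.00363). Summed over the list the hepatocyte markers gave 171 to 1069 CPM in acute and 1609 to 6583 CPM in fibrosis libraries, and 1645 to 36764 CPM in healthy and 4061 to 19092 CPM in cirrhosis libraries. Acute replicate 4 held the highest acute sum, but it lay below the lowest fibrosis sum.

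Among the 15 rises chosen by size, hepatocyte secretory genes made up most. They were Ahsg, Ambp, Apob, Plg, F2, Vtn, Itih1, Itih3 and Itih4, which encode plasma proteins, together with the carboxylesterase Ces1f and the tyrosine-degrading enzyme Hpd. Plg, plasminogen, was at 4.17, 3.43, 1.94, 12.4 and 4.43 CPM at acute injury and 35.9, 26.1, 79.6, 139 and 74.2 CPM at fibrosis (log2 fold change 3.85 ± 0.72, adjusted p = 0.00741). F2, prothrombin, was at 3.0, 2.43, 1.53, 10.2 and 3.28 CPM at acute injury and 24, 20.7, 46.1, 73.9 and 43.2 CPM at fibrosis (log2 fold change 3.57 ± 0.60, adjusted p = 0.00551). The liver enzyme Ces1f had 1.56 to 5.99 CPM at acute injury and 26.2 to 115 CPM at fibrosis (log2 fold change 4.51 ± 0.69, adjusted p = 0.00443). Members of the Itih and Serpina families share sequence, and the split of their reads is less certain than that of single-copy genes. Fitted together with the healthy and cirrhosis libraries, Apob (adjusted p = 0.0646), Itih1 (adjusted p = 0.0546) and Tat (adjusted p = 0.297) were not called, and the hepatocyte list kept 11 calls.

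**Figure D4:**
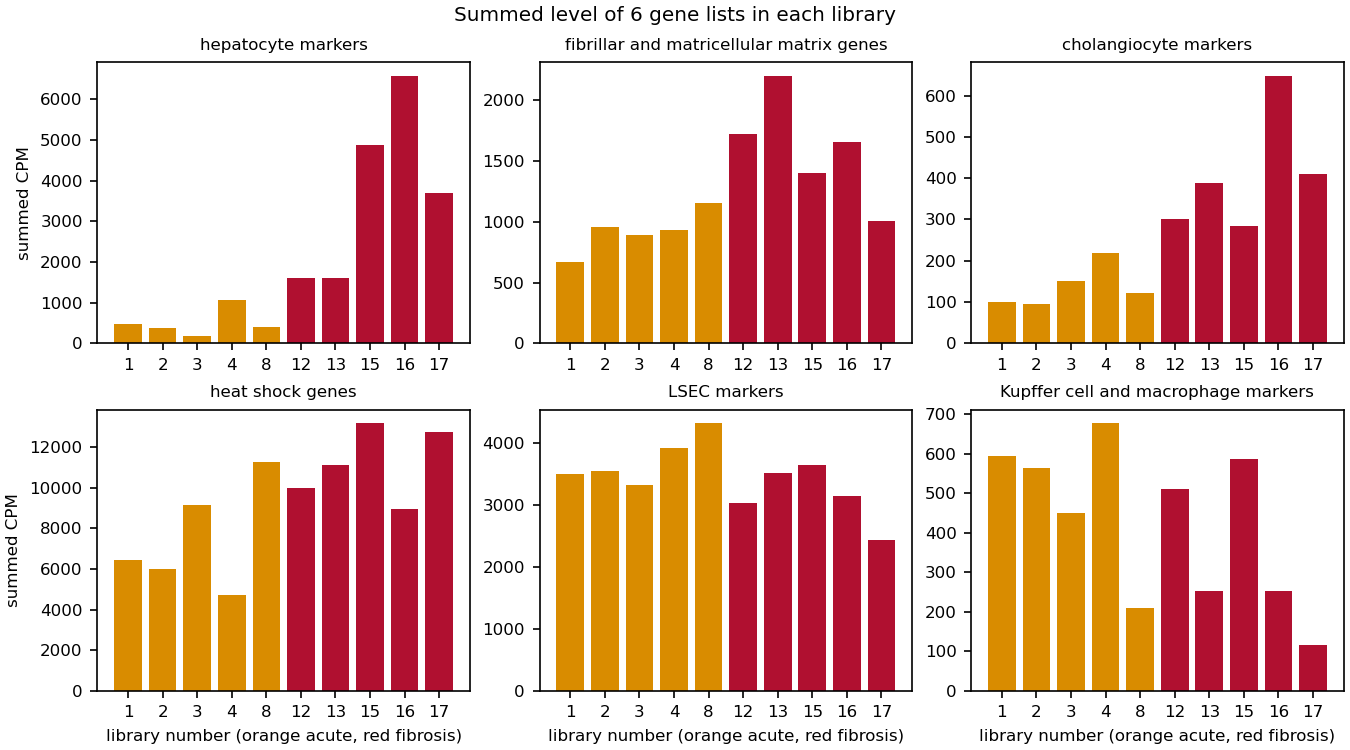
Summed CPM of 6 gene lists (hepatocyte, fibrillar matrix, cholangiocyte, heat shock, LSEC and Kupffer cell genes) in each of the 5 acute and 5 fibrosis libraries; each bar is a library. Hepatocyte sums are 171 to 1069 CPM at acute injury and 1609 to 6583 CPM at fibrosis without overlap, whereas LSEC and Kupffer cell sums overlap.

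Cytochrome P450 genes, whose products activate CCl4 in hepatocytes, rose in 11 of 16 members. Cyp2a1 was at 1.03, 1.05, 0.437, 3.43 and 0.86 CPM at acute injury and 9.53, 9.56, 18.5, 24.6 and 19.9 CPM at fibrosis (log2 fold change 3.87 ± 0.56, adjusted p = 0.00363). Cyp2c6v1 rose, with 2.07 to 8.79 CPM at acute injury and 20.9 to 57.8 CPM at fibrosis (log2 fold change 3.15 ± 0.44, adjusted p = 0.00363) and Cyp3a23/3a1 at 2.01 to 7.69 CPM at acute injury and 23.5 to 64.5 CPM at fibrosis (log2 fold change 3.18 ± 0.54, adjusted p = 0.00559). Cyp2e1, the enzyme best known for the activation of CCl4, lay at 0.35 to 1.32 CPM at acute injury and 7.11 to 49.4 CPM at fibrosis (log2 fold change 5.37 ± 1.03, adjusted p = 0.00787), and it is named after its values were seen. Cyp1b1, an extrahepatic P450 and the member with the most counts, was not called (log2 fold change -0.37 ± 0.25, adjusted p = 0.314), and neither was Cyp2b2, a member induced by phenobarbital (log2 fold change 0.48 ± 0.71, adjusted p = 0.659). The hepatocyte markers moved with the P450 genes in the same libraries and their part in this rise was not tested. P450 genes are near-identical within subfamilies, so single members are uncertain. The number of P450 genes called was 7 without acute replicate 2 or acute replicate 3 and 5 in the fit over all 22 libraries.

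Epithelial genes rose too. Keratins Krt8 (ENSRNOG00000009779) and Krt18 (ENSRNOG00000047393), the filament pair of hepatocytes and bile duct cells, were among the largest rises. Krt8 was at 4.76, 3.14, 3.41, 35.8 and 4.65 CPM at acute injury and 86.6, 97.5, 75.1, 173 and 77.3 CPM at fibrosis (log2 fold change 4.01 ± 0.56, adjusted p = 0.00363) and Krt18 at 5.01, 2.89, 2.59, 29.6 and 4.3 CPM at acute injury and 68.4, 76.1, 74.9, 178 and 81.5 CPM at fibrosis (log2 fold change 4.06 ± 0.58, adjusted p = 0.00363). Acute replicate 4 was the highest acute library and fibrosis replicate 16 the highest fibrosis library for both. Epcam, a surface protein of bile duct and progenitor cells, lay at 0.243 to 0.478 CPM at acute injury and 1.56 to 13.9 CPM at fibrosis (log2 fold change 4.02 ± 0.86, adjusted p = 0.0115). In total 5 of 7 tested cholangiocyte markers were up-regulated, a count that held with each library left out. Of the 16 markers listed, the duct keratins Krt19 and Krt7 and the duct factor Sox9 were among 9 too scarce to test, with Krt19 means of 0.0208 and 0.0953 CPM and Krt7 means of 0.124 and 0.354 CPM. Anxa4, the member with the most counts, did not differ beyond its error (log2 fold change 0.01 ± 0.09, adjusted p = 0.946, 95% interval -0.19 to 0.21).

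Markers of mesothelial, blood and lymphoid cells were scarce. Mesothelial markers Wt1 (log2 fold change 2.87 ± 0.55, adjusted p = 0.00777) and Msln (log2 fold change 1.56 ± 0.35, adjusted p = 0.0128) rose, with sums of 0.649 to 2.02 and 2.64 to 5.15 CPM. Of 6 erythroid and platelet markers 4 rose, the globins Hba-a2 and Hbb and the platelet receptor genes Gp9 and Itga2b, with sums of 6.76 to 10.3 and 8.91 to 16.7 CPM. The Itga2b call was lost without any one library other than acute replicate 8 and fibrosis replicate 17, and Hba-a2 (adjusted p = 0.53), Hbb (adjusted p = 0.482) and Msln (adjusted p = 0.379) were not called in the fit over 22 libraries. In B and plasma cell markers, Cd79b and Blnk were called of 4, at 0.023 to 0.573 CPM at acute injury and 0.585 to 2.14 CPM at fibrosis and at 3.72 to 5.71 CPM at acute injury and 4.99 to 10.1 CPM at fibrosis, and both calls were lost without acute replicate 1, 2 or 4 or fibrosis replicate 13 or 16. Of 7 T and NK cell markers and 2 neutrophil markers 0 were called (limma-voom), with 3 T and NK cell markers past the unadjusted p and the fold threshold and 1 (edgeR) and 2 (DESeq2) called by the other tools.

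Of 15 Kupffer cell and macrophage markers tested, 1 was up-regulated and 2 were down-regulated, where 0.732% of all genes were down-regulated. Their median log2 fold change was -0.43, and 3 of the 15 had positive values. With a weight for each library 5 were called lower, and in the fit over 22 libraries 0 were called. The haemoglobin scavenger receptor Cd163 was at 16.6, 18.1, 15.3, 28 and 7.0 CPM at acute injury and 1.83, 1.44, 6.93, 4.02 and 0.745 CPM at fibrosis (log2 fold change -2.76 ± 0.59, adjusted p = 0.0114). Csf1r, the receptor for the macrophage growth factor, was at 71.8, 61.2, 42.9, 89.1 and 23.4 CPM at acute injury and 28.4, 15, 28, 15.5 and 6.65 CPM at fibrosis (log2 fold change -1.6 ± 0.46, adjusted p = 0.0349). Trem2, a lipid receptor of scar-associated macrophages, was at 0.325, 0.297, 0.437, 0.253 and 0.0955 CPM at acute injury and 1.75, 0.858, 2.11, 1.44 and 0.287 CPM at fibrosis (log2 fold change 2.07 ± 0.63, adjusted p = 0.0409), opposite in sign to the 2 others. Csf1r lost its call when any one of acute replicates 1, 2, 3 and 4 and fibrosis replicates 13, 16 and 17 was left out (adjusted p over the alternatives 0.00128 to 0.0759), and Trem2 lost it when any library except fibrosis replicate 17 was (0.00058 to 0.115). Cd163 held with each library left out and had an adjusted p of 0.0744 in the fit over 22 libraries. Kupffer cell surface markers Clec4f (log2 fold change -0.49 ± 0.54, adjusted p = 0.553) and Vsig4 (log2 fold change -0.43 ± 0.67, adjusted p = 0.676) did not pass, and summed over the list the macrophage markers took 211 to 677 and 117 to 588 CPM. MHC class II genes, which present antigen, had negative values in all 7 members tested and 0 were called (limma-voom), with 1 past the unadjusted p and the fold threshold, and 0 were called by edgeR or DESeq2. Without acute replicate 8, 2 of them were called lower.

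Few LSEC identity genes differed between the stages, and in all 10 libraries their sum lay far under the healthy level. Of 20 markers tested 1 was called, and the median log2 fold change was 0.16. The scavenger receptor Stab1 was at 84.1 to 219.6 CPM at acute injury and 132 to 193 CPM at fibrosis (log2 fold change 0.26 ± 0.21, adjusted p = 0.392), against a healthy mean of 4936 CPM. Lyve1, the hyaluronan receptor with the most counts of the list, was at 863, 823, 691, 1161 and 687 CPM at acute injury and 546, 529, 694, 591 and 519.6 CPM at fibrosis and missed the threshold (log2 fold change -0.43 ± 0.14, adjusted p = 0.0555). Fcgr2b, the Fc receptor of sinusoidal endothelium, was at 595, 504, 571, 704 and 595 CPM at acute injury and 478, 455, 672, 427 and 319 CPM at fibrosis (log2 fold change -0.27 ± 0.17, adjusted p = 0.292). The mannose receptor Mrc1 had a log2 fold change of -0.51 ± 0.18 (adjusted p = 0.0625). The call was Flt4 (ENSRNOG00000002511), the receptor for VEGF-C on sinusoidal and lymphatic endothelium, at 197, 219, 167, 151 and 149 CPM at acute injury and 98.2, 118, 121, 92.4 and 86.8 CPM at fibrosis (log2 fold change -0.67 ± 0.13, adjusted p = 0.00878). All fibrosis libraries lay below all acute libraries for Flt4. Without acute replicate 4, acute replicate 8 or fibrosis replicate 13, 2 LSEC markers were called lower, and without acute replicate 8 1 was called higher.

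Of 17 pan-endothelial markers tested, 1 was called. Ecscr, an endothelial cell surface regulator of chemotaxis, rose, with 7.7 to 15.3 CPM at acute injury and 16.1 to 23.6 CPM at fibrosis (log2 fold change 0.85 ± 0.20, adjusted p = 0.0163), a call lost in the fit over 22 libraries (adjusted p = 0.101). The junction cadherin Cdh5 was at 1623, 2138, 1495, 1354 and 1335 CPM at acute injury and 980.1, 1188, 1083, 869.6 and 980.0 CPM at fibrosis, a fall that passed the adjusted p and not the fold threshold (log2 fold change -0.52 ± 0.13, adjusted p = 0.0204). Ptprb, the phosphatase of endothelial junctions, differed by 0.04 with a 95% interval of -0.15 to 0.24 on the log2 scale. When acute replicate 8 was left out there were 3 pan-endothelial markers called lower.

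Among angiogenic ligands and receptors, 4 were up-regulated and 2 down-regulated of 22. Vegfc, the ligand of Flt4, was at 3.73, 3.03, 2.51, 3.16 and 5.16 CPM at acute injury and 12.9, 15.5, 11.1, 15.5 and 9.97 CPM at fibrosis (log2 fold change 2.02 ± 0.21, adjusted p = 0.00161), so that ligand and receptor moved in opposite directions. Hey1, a Notch target, rose, with 0.108 to 0.605 CPM at acute injury and 0.458 to 1.37 CPM at fibrosis (log2 fold change 1.93 ± 0.46, adjusted p = 0.0164), and Pgf, placental growth factor, at 15.9 to 126 CPM at acute injury and 99.3 to 125 CPM at fibrosis (log2 fold change 1.57 ± 0.39, adjusted p = 0.0201). The Pgf call was lost without acute replicate 2 (adjusted p = 0.0524, range over the alternatives 0.000925 to 0.0743) and by edgeR and DESeq2, and the Hey1 call in the fit over 22 libraries (adjusted p = 0.063). Apln, a peptide ligand of endothelial tip cells, was the second member called lower, at 42.3 to 320.1 CPM at acute injury and 19.2 to 44.4 CPM at fibrosis with overlap (log2 fold change -2.31 ± 0.58, adjusted p = 0.0204). Vegfa and the receptor Kdr were not called (log2 fold change -0.12 ± 0.19, adjusted p = 0.685 and log2 fold change 0.42 ± 0.29, adjusted p = 0.335).

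Vasoactive genes, which set sinusoidal tone, were up-regulated in 8 and down-regulated in 2 of 17. The list sum did not rise with them, at 1481 to 2776 CPM (median 1829) at acute injury and 1289 to 1638 CPM (median 1407) at fibrosis. Adm held the most counts of the list at acute injury. Ptgis, prostacyclin synthase, was at 1.27, 0.46, 1.8, 0.668 and 1.27 CPM at acute injury and 7.92, 4.53, 4.32, 4.25 and 1.72 CPM at fibrosis (log2 fold change 2.16 ± 0.49, adjusted p = 0.0143). Ednrb, the endothelin receptor of endothelium, was at 22.2, 17.8, 15.5, 18.8 and 18.4 CPM at acute injury and 30.4, 26.8, 32.5, 39.4 and 33.6 CPM at fibrosis (log2 fold change 0.91 ± 0.12, adjusted p = 0.00363). Thbd, thrombomodulin, the endothelial anticoagulant receptor, fell from 97.6, 131, 119.8, 74.7 and 114 CPM to 59.9, 73.3, 65.1, 50.3 and 40.9 CPM (log2 fold change -0.79 ± 0.18, adjusted p = 0.0149). The nitric oxide synthase of endothelium, Nos3, did not differ beyond its error (log2 fold change -0.02 ± 0.12, adjusted p = 0.917, 95% interval -0.28 to 0.24). The up-regulated count was unstable, at 3 without acute replicate 2, acute replicate 4, fibrosis replicate 13 or fibrosis replicate 16, at 4 without acute replicate 1, acute replicate 3, fibrosis replicate 12 or fibrosis replicate 15, and at 1 in the fit over 22 libraries, where Ednrb (adjusted p = 0.0673) and Ace (adjusted p = 0.0931) were lost. Without acute replicate 1, acute replicate 8, fibrosis replicate 13 or fibrosis replicate 16, 1 vasoactive gene was called lower.

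Leukocyte adhesion genes were up-regulated in 3 of 11 members. Vcam1 (ENSRNOG00000014333), the endothelial ligand of leukocyte integrins, was at 78.5, 48.8, 268, 42.6 and 592 CPM at acute injury and 704, 672, 903, 629 and 623 CPM at fibrosis (log2 fold change 2.64 ± 0.67, adjusted p = 0.0215). Acute replicate 8, and to a lesser extent acute replicate 3, lay well above the other acute libraries, while the fibrosis libraries were tightly grouped. Its call was lost without acute replicate 1 (adjusted p = 0.0556), without acute replicate 2 (0.0506) and by edgeR (0.0733), within a range of 0.00129 to 0.0733 over the alternatives. E-selectin, Sele, was at 1.52, 1.46, 2.4, 2.37 and 3.88 CPM at acute injury and 5.66, 6.86, 16.1, 5.43 and 5.85 CPM at fibrosis (log2 fold change 1.82 ± 0.37, adjusted p = 0.0101) and P-selectin, Selp, at 22.8, 34.7, 30.8, 48.8 and 23.4 CPM at acute injury and 45.2, 118, 42, 128 and 186 CPM at fibrosis (log2 fold change 1.6 ± 0.44, adjusted p = 0.0283), both of which tether rolling leukocytes. The Selp call was lost without any one of acute replicates 1, 2 and 3 and fibrosis replicates 13 and 16 (adjusted p over the alternatives 4.34e-05 to 0.0711), and the Sele call in the fit over 22 libraries (0.0511). Icam1, with the most counts of the list, was not called (log2 fold change 0.34 ± 0.20, adjusted p = 0.243). The group had 1 member called without acute replicate 1 or acute replicate 2. Adhesion genes summed to 1013 to 1856 CPM at acute injury and 1743 to 2030 CPM at fibrosis. Healthy libraries held 9510 to 27842 CPM and cirrhosis libraries 8755 to 12462 CPM of them.

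Inflammatory chemokines and cytokines had 3 members up-regulated and 1 down-regulated of 26, a share near that of all genes. Cx3cl1, a membrane-bound chemokine for monocytes, rose, with 2.57 to 11.7 CPM at acute injury and 14.3 to 33.3 CPM at fibrosis (log2 fold change 2.16 ± 0.37, adjusted p = 0.00595). Cxcl9, an interferon-gamma-induced chemokine for T cells, rose, with 5.09 to 64.9 CPM at acute injury and 52.5 to 217 CPM at fibrosis (log2 fold change 2.84 ± 0.59, adjusted p = 0.0105). The neutrophil chemokine Cxcl1, with the most counts, was not called (log2 fold change 0.42 ± 0.31, adjusted p = 0.357), and neither was Ccl2, which attracts monocytes (log2 fold change 0.09 ± 0.22, adjusted p = 0.797). Il33, a nuclear alarmin, was the member that fell, at 272, 362, 518, 462 and 296 CPM at acute injury and 144, 132, 119.8, 172 and 254 CPM at fibrosis (log2 fold change -1.12 ± 0.23, adjusted p = 0.0104). Interferon-stimulated genes were up-regulated in 2 of 26, a share under the 10.2% of all genes. They were Oasl, at 77.7, 57, 126, 33.8 and 191 CPM at acute injury and 293, 308, 749, 225 and 177 CPM at fibrosis (log2 fold change 2.02 ± 0.49, adjusted p = 0.0177), and Cxcl10, whose call was lost without any one of acute replicates 1, 2 and 4 and fibrosis replicates 12, 13, 15 and 16 (adjusted p over the alternatives 0.00704 to 0.1). Fibrosis replicate 15 was far above the others for Oasl. The other interferon-stimulated genes spread widely within each group, with sums of 1156 to 4246 CPM at acute injury and 1683 to 5901 CPM at fibrosis. Without acute replicate 8 the interferon list had 5 up-regulated members, and so had the chemokine list.

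Heat shock genes, which encode chaperones and their partners, were up-regulated in 4 of 13 members, and all 13 had positive values. Bag3 (ENSRNOG00000020298), the co-chaperone of selective autophagy, was at 111, 104, 155, 63.9 and 203 CPM at acute injury and 278, 326, 424, 255 and 417 CPM at fibrosis (log2 fold change 1.6 ± 0.28, adjusted p = 0.00626). Its partner Hspb8, outside the list but among the largest rises, was at 5.09, 2.49, 1.69, 10.5 and 6.69 CPM at acute injury and 41.6, 21.7, 97.5, 233 and 116 CPM at fibrosis (log2 fold change 4.2 ± 0.98, adjusted p = 0.0156). Hsph1, a nucleotide exchange factor of Hsp70, was at 562, 504, 673, 323 and 1285 CPM at acute injury and 1212, 1640.2, 1962, 982 and 1548 CPM at fibrosis (log2 fold change 1.34 ± 0.32, adjusted p = 0.0179), with acute replicate 8 inside the fibrosis range. Hspb1, a small heat shock protein, was at 142, 112, 267, 76.5 and 288 CPM at acute injury and 346, 432, 493, 248 and 502 CPM at fibrosis (log2 fold change 1.42 ± 0.36, adjusted p = 0.0215), and Dnajb1, an Hsp40, rose, with 84.8 to 152 CPM at acute injury and 115 to 198 CPM at fibrosis (log2 fold change 0.60 ± 0.19, adjusted p = 0.0466). The chaperone with the most counts, Hsp90ab1, was not called (log2 fold change 0.33 ± 0.13, adjusted p = 0.0886), and the inducible Hspa1b had a wide interval (log2 fold change 2.52, 95% interval 0.56 to 4.48). Hspb1 lost its call without acute replicate 1, acute replicate 2 or fibrosis replicate 15 (adjusted p 0.0539, 0.0543 and 0.0502, range over the alternatives 0.00176 to 0.0543), and in each of these fits 2 heat shock genes were called. Hsph1 lost it in the fit over 22 libraries (0.131).

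The promoters of these 4 genes are shown because the heat shock element, to which heat shock factors bind, can be read in them. The element was searched as GAANNTTC or TTCNNGAA, each its own reverse complement, so both strands were covered, and neighbouring matches can overlap. The windows of 100 bases, all upstream of the gene's start, are from RefSeq promoters of the GRCr8 build, whereas the reads were mapped to Rnor_6.0, and capitals mark the element's fixed letters.
Bag3, chr1:192533328-192533427 (+ strand): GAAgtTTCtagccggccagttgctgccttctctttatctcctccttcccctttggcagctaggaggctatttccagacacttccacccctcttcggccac
Hsph1, chr12:10427263-10427362 (+ strand): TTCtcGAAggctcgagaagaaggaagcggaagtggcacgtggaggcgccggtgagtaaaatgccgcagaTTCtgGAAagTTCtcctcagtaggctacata
Hspb1, chr12:26432331-26432430 (- strand): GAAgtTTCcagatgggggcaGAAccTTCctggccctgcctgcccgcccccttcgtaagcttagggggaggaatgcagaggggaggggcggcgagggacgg
Dnajb1, chr19:41431142-41431241 (- strand): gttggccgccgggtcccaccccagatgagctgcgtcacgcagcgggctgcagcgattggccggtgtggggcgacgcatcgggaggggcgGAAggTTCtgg
In the table of promoters from 250 bases before the start, 8 of the 10 heat shock genes with an entry held at least 1 match of 8 bases, against 13.2% of all 27457 promoters. A longer form of 13 bases, GAANNTTCNNGAA or its reverse complement, was in 4 of the 10, against 0.597% of all promoters. Hspd1 and Hspe1 lie on opposite strands with overlapping windows, so the same matches count for both genes here and below. All 4 up-regulated members held the 8-base element, and so did 4 of the 6 others, so the letters did not separate the members that rose from those that did not. A match describes the letters and shows no binding.

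NRF2 targets, the genes of the electrophile and oxidant response, were up-regulated in 4 of 15. Slc7a11, the cystine importer that feeds glutathione synthesis, was at 87.2, 116, 89.2, 62.1 and 76.3 CPM at acute injury and 171, 198, 159.9, 181 and 228 CPM at fibrosis (log2 fold change 1.24 ± 0.15, adjusted p = 0.00301). Gclm, the regulatory subunit of the enzyme that limits glutathione synthesis, was at 66.4, 69.8, 56.6, 43.9 and 74.1 CPM at acute injury and 85.2, 88.6, 114, 113 and 103 CPM at fibrosis (log2 fold change 0.82 ± 0.14, adjusted p = 0.00627), and haem oxygenase Hmox1 at 1281, 1315, 1010.5, 581 and 2123 CPM at acute injury and 2640.2, 2439, 3425, 2125 and 1952 CPM at fibrosis (log2 fold change 1.18 ± 0.29, adjusted p = 0.02). Quinone reductase Nqo1 had a value of the opposite sign and was not called (log2 fold change -0.38 ± 0.16, adjusted p = 0.114), and the catalytic subunit Gclc did not differ beyond its error (log2 fold change -0.04 ± 0.13, adjusted p = 0.861). Healthy libraries held a mean of 0.581 CPM of Slc7a11 and cirrhosis libraries 1.56 CPM, so this gene belongs to those that set the 10 libraries apart. In the unfolded protein response, 1 of 16 members, the transcription factor Atf3, was called, a call lost without any one of acute replicates 1, 2 and 4 and fibrosis replicates 12, 13, 15 and 16 (adjusted p over the alternatives 0.00183 to 0.0742), and the chaperone Hspa5 was not (log2 fold change 0.37 ± 0.17, adjusted p = 0.142). Asparagine synthetase, Asns, fell under the adjusted p but within the fold threshold (log2 fold change -0.52 ± 0.10, adjusted p = 0.00934). Immediate-early genes, which respond within minutes to a stimulus and to tissue digestion, were up-regulated in 5 of 20, with Fosb at 4.05 to 32.9 CPM at acute injury and 25.3 to 52.6 CPM at fibrosis (log2 fold change 1.75 ± 0.42, adjusted p = 0.0169) and Nr4a1 at 3.25 to 8.5 CPM at acute injury and 7.36 to 11.9 CPM at fibrosis (log2 fold change 1.08 ± 0.23, adjusted p = 0.0115). Fosb lost its call by edgeR (adjusted p = 0.0514) and Nr4a1 in the fit over 22 libraries (0.205). Egr1 was not called (log2 fold change 0.02 ± 0.22, adjusted p = 0.959), and 2 immediate-early genes were called without acute replicate 1, acute replicate 2, acute replicate 4 or fibrosis replicate 16, and 3 without acute replicate 3 or fibrosis replicate 12, 13 or 15.

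Cholesterol synthesis and uptake genes were up-regulated in 6 of 20. Sc5d, the sterol desaturase, was at 3.68, 3.76, 3.6, 6.59 and 3.85 CPM at acute injury and 10.4, 13.7, 9.98, 18.7 and 9.51 CPM at fibrosis (log2 fold change 1.61 ± 0.25, adjusted p = 0.00443), and Msmo1, the sterol methyl oxidase, lay at 21.5 to 29.3 CPM at acute injury and 34.4 to 54.9 CPM at fibrosis (log2 fold change 0.86 ± 0.13, adjusted p = 0.00443). Idi1, an isomerase early in the pathway (log2 fold change 0.55 ± 0.12, adjusted p = 0.0121), passed the adjusted p and not the fold threshold. In the fit over 22 libraries 2 genes of the list were called. In fatty acid handling, 2 of 18 rose, a share near that of all genes. Among them was the desaturase Scd (log2 fold change 2.97 ± 0.54, adjusted p = 0.00682, and adjusted p = 0.0757 over 22 libraries), while acetyl-CoA carboxylase Acaca (log2 fold change -0.44 ± 0.08, adjusted p = 0.00757) and fatty acid synthase Fasn (log2 fold change -0.36 ± 0.10, adjusted p = 0.0253) fell by less than the fold threshold. Without acute replicate 1, 2 or 4 or fibrosis replicate 12 or 16 the list had 1 up-regulated member. In that count another member can take the place of a lost one. Without acute replicate 8 there were 3 members called lower. Hepatocyte markers rose in the same libraries as Scd, and their part was not tested. Of 22 glycolysis and hypoxia genes 1 was called, Ndrg1, whose call 12 of 19 other fits did not keep, among them those without any one library other than acute replicate 8.

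Cell division genes had 5 up-regulated members of 28. Of all genes tested 10.2% rose, and 20.3% of those below a mean log2 CPM of 3. Summed over the list, cell division genes took 410 to 533 CPM at acute injury and 389 to 467 CPM at fibrosis. Mki67, the proliferation marker Ki-67, was at 2.35, 2.81, 2.89, 2.56 and 3.53 CPM at acute injury and 6.31, 5.15, 7.8, 4.92 and 3.87 CPM at fibrosis (log2 fold change 1.06 ± 0.21, adjusted p = 0.00867). Nusap1, a spindle protein, was at 0.947, 1.35, 1.23, 0.691 and 1.4 CPM at acute injury and 1.97, 2.14, 2.02, 2.7 and 2.09 CPM at fibrosis (log2 fold change 1.11 ± 0.22, adjusted p = 0.0089). The replicative helicase subunit Mcm4 fell by less than the fold threshold (log2 fold change -0.29 ± 0.08, adjusted p = 0.0322), and the mitotic kinase Cdk1 was not called (log2 fold change 0.11 ± 0.32, adjusted p = 0.827). The list had 2 called members without acute replicate 1, and 3 without acute replicate 2 or without fibrosis replicate 12, 13, 15 or 16. In the fit over 22 libraries Mki67 (adjusted p = 0.211) and Nusap1 (adjusted p = 0.0919) were lost. Genes of the p53 response and of senescence rose in 6 of 17, and in 3 without acute replicate 1. Cdkn2a, whose products p16 and p19 hold the cell cycle, was at 0.108, 0.135, 0.464, 0.299 and 0.446 CPM at acute injury and 0.986, 1.32, 0.585, 1.35 and 1.15 CPM at fibrosis (log2 fold change 2.12 ± 0.42, adjusted p = 0.00913). Cdkn1a, which encodes p21 and had the most counts of the list, did not differ beyond its error (log2 fold change -0.05 ± 0.14, adjusted p = 0.82, 95% interval -0.37 to 0.26). Circadian clock genes rose in 4 of 16, with the repressor Nr1d1 at 44.1 to 229 CPM at acute injury and 196 to 263 CPM at fibrosis (log2 fold change 1.44 ± 0.34, adjusted p = 0.0169) and Bhlhe40 at 15.8 to 33.3 CPM at acute injury and 25.4 to 71 CPM at fibrosis (log2 fold change 1.24 ± 0.29, adjusted p = 0.0152). The hour of sacrifice is not given in the labels, and 2 clock genes were called without acute replicate 1 or acute replicate 2.

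The study shows a set of vesicle genes that it chose on these samples, so that they are no independent evidence of direction. Of these, 3 were up-regulated and 1 was down-regulated among 17 tested. Only 6 of the 17 had positive values, and the median log2 fold change was -0.14 against 0.0043 over all genes. Without overlap between the groups, 3 members fell and 0 rose, where 841 of all 13931 genes tested fell and 1106 rose. The list summed to 719 to 766 CPM at acute injury and 632 to 673 CPM at fibrosis, on the scale where all genes had a median log2 ratio of -0.085. Cers6, a ceramide synthase, was at 50.4, 52.9, 52.7, 45.9 and 64.6 CPM at acute injury and 26.5, 32.8, 29.1, 30.1 and 31.1 CPM at fibrosis (log2 fold change -0.72 ± 0.09, adjusted p = 0.00363). Sphingosine kinase Sphk1 was at 1.35, 1.22, 1.97, 0.691 and 5.19 CPM at acute injury and 5.16, 6.4, 10.3, 5.54 and 4.3 CPM at fibrosis (log2 fold change 2.02 ± 0.43, adjusted p = 0.0113, and adjusted p = 0.171 over 22 libraries). The exocytosis GTPase Rab3a (log2 fold change 1.72 ± 0.55, adjusted p = 0.0493) and the sphingosine 1-phosphate receptor S1pr4 (log2 fold change 1.98 ± 0.59, adjusted p = 0.0393) were the other rises, and neither held with each library left out, since Rab3a was lost without any one library except acute replicate 8 and fibrosis replicate 15 and S1pr4 without any one of acute replicates 1, 3, 4 and 8 and fibrosis replicates 13, 16 and 17. Components of the sorting complexes that bud vesicles into endosomes, Tsg101 (log2 fold change -0.14 ± 0.05, adjusted p = 0.0516), Vps28 (log2 fold change -0.17 ± 0.10, adjusted p = 0.254) and Vps4a (log2 fold change -0.19 ± 0.06, adjusted p = 0.0615), were not called. The tetraspanin Cd81 differed by -0.01 on the log2 scale with a 95% interval of -0.16 to 0.13.

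**Figure D5:**
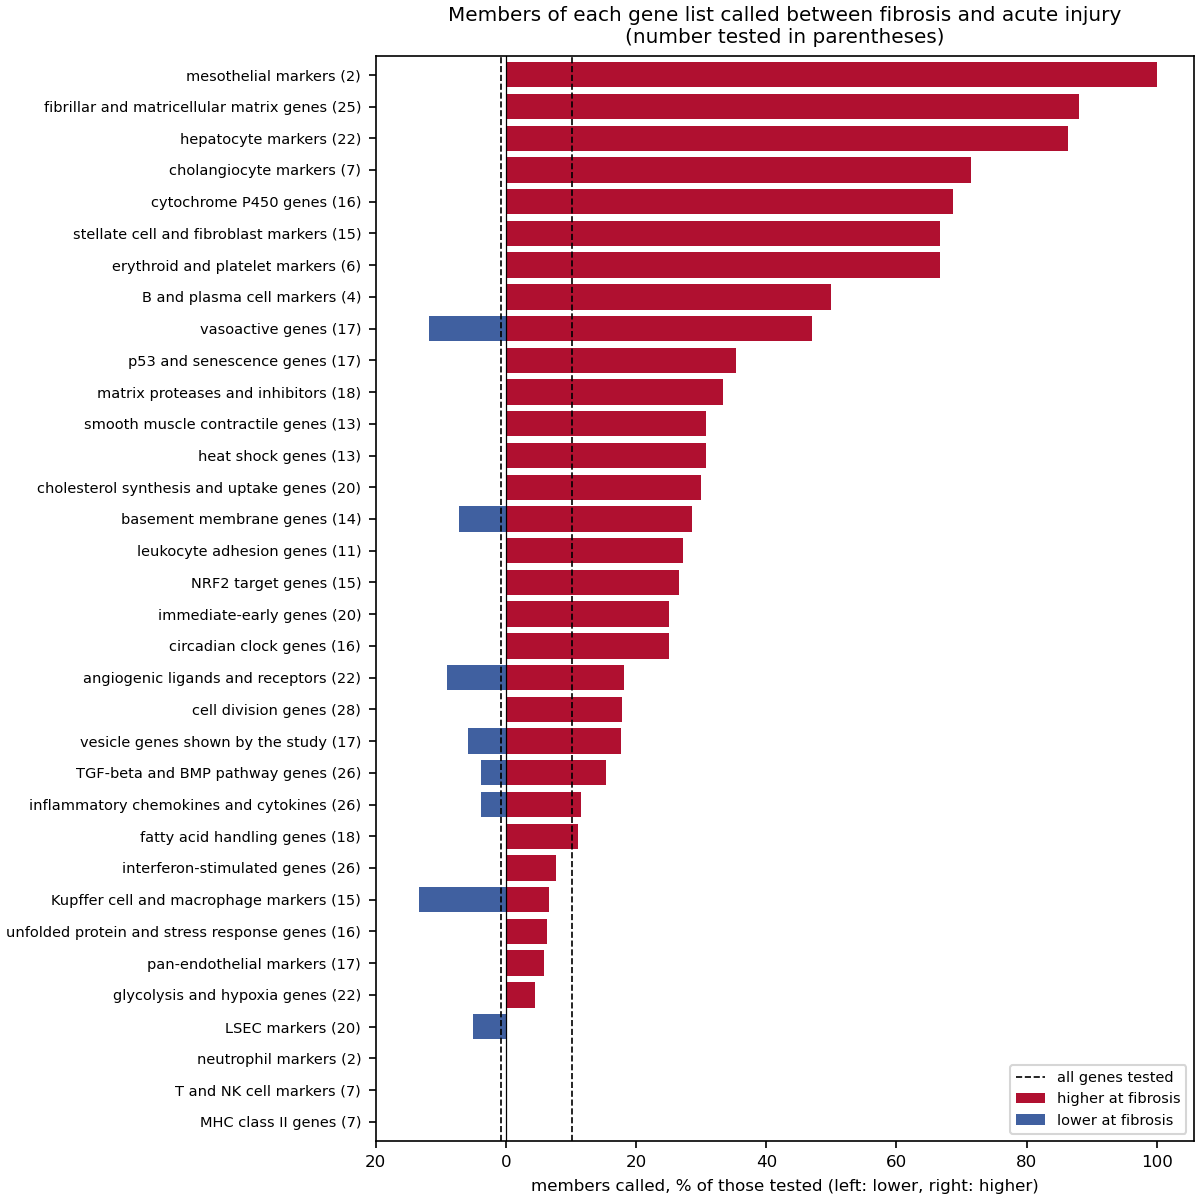
Percentage of the tested members of each gene list called higher (right) or lower (left) at fibrosis against acute injury, with the number tested in parentheses; dashed lines give the shares of all 13931 genes, 10.2% higher and 0.732% lower. Matrix, hepatocyte, cholangiocyte, P450 and stellate cell lists lie far to the right, while LSEC, MHC class II, neutrophil and T and NK cell lists have no gene called higher.

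Among genes with a mean log2 CPM of 3 or more, leaving out placeholder symbols and those shared by several genes, the 10 largest falls without overlap were spread over genes of different functions. Ctla2a, a cysteine protease inhibitor, was at 43, 44.5, 35.1, 17.7 and 33.6 CPM at acute injury and 15.6, 16.4, 11.8, 10.1 and 12.9 CPM at fibrosis (log2 fold change -1.21 ± 0.28, adjusted p = 0.0157). P2rx4, the ATP-gated channel through which endothelium senses flow, was at 25.5, 25.1, 39.3, 46.6 and 20.2 CPM at acute injury and 13.9, 12.4, 13.5, 16.5 and 8.51 CPM at fibrosis (log2 fold change -1.16 ± 0.28, adjusted p = 0.0174). Every fibrosis library was below every acute library for both. Clcn5, the endosomal chloride exchanger, was at 64.5, 63.5, 56.4, 70.9 and 56.9 CPM at acute injury and 28.9, 36, 32.9, 31.3 and 30.5 CPM at fibrosis (log2 fold change -0.87 ± 0.08, adjusted p = 0.00158), with a narrow spread in each group. Ada, adenosine deaminase, which removes extracellular and cellular adenosine, was at 53.6, 59.1, 56.2, 56.6 and 50.8 CPM at acute injury and 25.5, 35.6, 26.8, 27.2 and 22.8 CPM at fibrosis (log2 fold change -0.92 ± 0.10, adjusted p = 0.00165). Ccnd2, the G1 cyclin D2, was at 28.6, 27.7, 30.5, 30.5 and 25 CPM at acute injury and 16.6, 19, 13.4, 15.5 and 11 CPM at fibrosis (log2 fold change -0.84 ± 0.13, adjusted p = 0.00473). All of these calls, and those of Itpripl1 (log2 fold change -1.0 ± 0.16, adjusted p = 0.00507) and of the junction adaptor Ajuba (log2 fold change -0.90 ± 0.18, adjusted p = 0.00883), held in all 19 other fits. Dusp6, a phosphatase that shuts off ERK, fell, with 38.3 to 101 CPM at acute injury and 27.6 to 34.6 CPM at fibrosis (log2 fold change -0.94 ± 0.25, adjusted p = 0.0258), and its call was lost without acute replicate 1 or without fibrosis replicate 12, 13 or 15 (adjusted p over the alternatives 0.000239 to 0.0594).

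Of the genes with a mean log2 CPM of 7 or more, again without such symbols, the 5 largest falls without overlap were Il33, Ptprn, Syne1, Lpar6 and Dock4. Ptprn, a receptor-like phosphatase of secretory granules, was at 426, 471, 393, 331 and 370.1 CPM at acute injury and 169, 208, 209.8, 195 and 193 CPM at fibrosis (log2 fold change -0.92 ± 0.10, adjusted p = 0.00165). Its means were 4.29 CPM in healthy and 3.72 CPM in cirrhosis libraries, far under both groups. Lpar6, a lysophosphatidic acid receptor, was at 517, 409.7, 422, 446 and 458 CPM at acute injury and 216, 251, 301, 238 and 263 CPM at fibrosis (log2 fold change -0.73 ± 0.09, adjusted p = 0.0035), and Dock4, an activator of Rac, lay at 187 to 274 CPM at acute injury and 98.8 to 151 CPM at fibrosis (log2 fold change -0.71 ± 0.14, adjusted p = 0.00783). Syne1, a giant spectrin-repeat protein of the nuclear envelope, fell, with 1067 to 2023 CPM at acute injury and 753 to 892 CPM at fibrosis (log2 fold change -0.75 ± 0.14, adjusted p = 0.00714). In the fit over 22 libraries Syne1 (adjusted p = 0.103) and Lpar6 (adjusted p = 0.231) were not called. The rises at this level, besides Alb, Tf, Vcam1 and Oasl, included Clu, a secreted chaperone, at 122, 101, 276, 81.3 and 543 CPM at acute injury and 581, 872, 921, 799 and 773 CPM at fibrosis (log2 fold change 2.28 ± 0.47, adjusted p = 0.0103).

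Cirrhosis against healthy LSECs shares no library with this comparison and was fitted in the same way, with 27.1% of 14789 genes higher and 24.7% lower at cirrhosis. Of the 1349 genes up-regulated at fibrosis that were tested there, 374 (27.7%) were higher and 192 (14.2%) lower, so the share that rose was near the background and the share that fell was under it. Of 94 genes down-regulated at fibrosis, 15 (16%) were higher and 37 (39.4%) lower. At cirrhosis against healthy the log2 fold change was 2.03 for Col1a1 (adjusted p = 0.00809), 0.99 for Fbn1 (0.00169), 0.23 for Alb (0.834) and -0.79 for Flt4 (0.00104). In these CPM, Col1a1 averaged 10.04 CPM in healthy, 1.49 in acute, 46.6 in fibrosis and 51.9 in cirrhosis libraries, and Alb averaged 5864, 273, 1968 and 4415 CPM. Levels across these library sets stand beside each other as a description, since the 10 acute and fibrosis libraries stood apart from the 12 healthy and cirrhosis libraries in many genes.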

How the data were processed

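RNA of purified rat LSECs was sequenced by the authors as polyA libraries (stranded mRNA kit, per the study's methods). The submitters' processing notes name FastQC, Trim Galore, STAR, RSEM and limma and the Rnor_6.0 build, and the strand setting of the counting was not given in the sources used here. The authors deposited 1 file per library with expected counts per gene, which RSEM estimates by dividing reads that map to several genes, so members of near-identical families are less certain.

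Expected counts of the 5 acute and 5 fibrosis libraries were rounded to whole numbers, filtered with filterByExpr, scaled with TMM factors and fitted with limma-voom (R 4.3.3, limma 3.58.1, edgeR 4.0.16). The study's methods name TMM and limma-voom, and the rounding and this filter were chosen here. The study called genes at an unadjusted p, and here a Benjamini-Hochberg adjusted p under 0.05 over all 13931 genes tested, with a fold-change above 1.5, made a call. Alternatives were edgeR's quasi-likelihood test, DESeq2 1.42.0, other filters and scalings, library weights, a fit over the 22 CCl4-model libraries, and leaving out each library. Replicate pairs differed by far more than sampling noise, so no library was counted as a copy of another. Total counts of 28205908 to 36916992 per library set the precision, and scarce genes are the least precise.

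The gene lists (622 entries in 34 lists, 602 matched by symbol and 6 by synonym, 14 not found in the files) and the comparison were chosen with earlier results of these data known. Genes named in the text were the 15 largest rises and 10 largest falls among genes called without overlap with a mean log2 CPM from 3 upwards and a symbol that names 1 gene, the 5 largest each way at a mean of at least 7, up to 4 members of each list with the smallest p, the 3 members of each cell type list with the highest mean CPM, and the vesicle and tropomyosin genes the study shows. Members outside this rule, such as Cyp2e1, Apln, Acta2, Fst and those given as not called, were named after their values were seen. Some genes within the rule are not reported here. Libraries of the thioacetamide model were not used here.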

Additional observations from a re-analysis of the deposited data

Results flagged for a closer look

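Groups of 5 libraries were searched for a highest or lowest library far from the rest (Dixon's test). The search covered total counts, the summed CPM of each list and the named rises and falls, and 21 of 136 groups (15.4%) were marked. Chance alone marks about 1 group in 20 where values are independent and normally distributed. CPM were not transformed and several marked genes shared acute replicate 4, so the 15.4% cannot be read against that rate. Acute replicate 4 was the deepest acute library, at 36917000 total counts against 32986900 in the next, and the depth was part of the scaling of every level. In the same library the hepatocyte secretory genes and keratins stood highest of the acute group. There Apob was at 12.6 CPM, Ambp at 26.0, Vtn at 18.2, Ces1f at 5.99, F2 at 10.2, Plg at 12.4, Itih3 at 23.8 and Itih1 at 7.07 CPM. Krt8 was at 35.8 CPM against 4.76 in the next acute library, and Krt18 at 29.6 CPM against 5.01. The neutrophil marker sum was also highest there, at 48.2 CPM against 14.4. Without this library 1334 genes were called between fibrosis and acute injury, against 1529 with it.

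Acute replicate 8 held the highest acute sum of leukocyte adhesion genes, 1856 CPM against 1184, and of cholesterol genes, 1425 CPM against 982. At fibrosis, replicate 15 stood apart in the interferon-stimulated sum, 5901 CPM against 2641, in Oasl, 749 CPM against 308, and in the immediate-early sum, 5139 CPM against 3981. Fibrosis replicate 12 held T and NK cell markers at 75.4 CPM against 18.2 and Itpripl1 at 15.5 CPM against 9.99. Fibrosis replicate 16 held Krt8 at 173 CPM against 97.5 and Krt18 at 178 CPM against 81.5.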

How the results depend on the processing

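The number of differentially expressed genes was 1529, and it was 1388 by edgeR, 1672 by DESeq2, 1789 without the low-count filter and 1145 with a minimum of 1 CPM in 5 libraries. It was 2346 with a weight for each library, 746 in a single fit over the 4 CCl4 groups (632 of them also among the 1529) and 2826 without the fold threshold, and from 1011 to 2166 with each library left out. The up-regulated share, 93.3%, was 91.7% by edgeR, 91.2% by DESeq2, 94.6% with upper-quartile factors, 90.9% with library sizes, 88.7% with library weights, 88.6% in the single fit, 91.1% at an unadjusted p, 97.8% above a fold-change of 2, 60.5% without the fold threshold, and from 87.2% to 93.6% with each library left out. Without the fold threshold the larger number of small falls changed that share by construction. On the scale of 22 libraries, chosen after seeing the data, 848 genes lay higher and 1758 lower without overlap, against 1106 and 841 on the scale of the 10. Of 178 named genes 121 were called, 67 of them under every alternative, 54 were lost under at least 1, mostly the single fit (42), and no called gene changed sign, while 19 that were not called passed under at least 1. The cause of these losses was not tested. Depth limited the precision of scarce genes most. No paired analysis was possible because the acute and fibrosis libraries share no replicate number.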
